A study of Rattus norvegicus with 6 samples.

Results

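Heme is built by a chain of enzymes that starts and ends in the mitochondrion, and it is broken down in the cytosol to biliverdin and bilirubin. The genes described here are 9 of these enzymes, chosen by name: Alas1, Alas2, Alad, Uros, Urod, Cpox, Ppox and Fech of synthesis, and Blvrb of breakdown. They were measured by 10 probe sets, those annotated with exactly 1 of these symbols, out of 31042 probe sets other than controls and 14217 genes with 1 symbol. Every gene had 1 probe set except Uros, which had 2, and all 10 passed the signal filter.

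The measurements come from 6 rat liver samples, 3 in each of 2 groups. Rats of both groups were made hypercholesterolemic by 30 d on a fat-rich diet and kept on it for another 30 d. In that second period the high-fat group received 1 ml of normal saline a day by intragastric gavage, and the probiotic group received the same volume carrying the bacterium Lactobacillus casei Zhang. The sources used here do not give strain, sex or age, no normal-diet group was analysed, and nothing states separately that each sample is a different rat, so p-values measure the spread between these samples.

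In liver, the condensation of glycine with succinyl-CoA by 5-aminolevulinate synthase sets the pace of heme synthesis. Alas1 encodes the form found in all cells, which is repressed by heme and induced when cytochromes P450 are made or when food is withdrawn. Alas2, on the X chromosome, encodes the form of developing red cells. The later enzymes join and reshape the pyrrole rings and are generally regarded as less tightly controlled.

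The deposited intensities have a trimmed mean of 500.3 on each array, and their medians ranged from 90.05 to 146.9. Arrays of 1 group correlated at 0.916 to 0.953 over the probe sets tested, and arrays of different groups at 0.885 to 0.959. On the leading principal component, with 35.5% of the variance, probiotic samples 1, 2 and 3 scored -4.15, -51.6 and -26.1 and high-fat samples 1, 2 and 3 scored 2.98, 75.5 and 3.38. The groups lay on either side of 0, with sample 1 of each close to it and the samples numbered 2 at the ends. For Actb, the 3' control probe set exceeded the 5' one by a log2 gap that widens as transcripts shorten, and this gap was 2.11, 3.01 and 2.38 in probiotic samples 1, 2 and 3 and 1.96, 1.59 and 1.96 in high-fat samples 1, 2 and 3 (exact two-sided permutation p = 0.1, the smallest that 3 samples against 3 allow). The same gap for Gapdh was 0.71, 1.49 and 1.23 in probiotic samples 1, 2 and 3. It was 0.52, 0.53 and 0.79 in high-fat samples 1, 2 and 3, with overlap between groups (exact two-sided permutation p = 0.2). The Actb gap thus moved with the groups, while the Gapdh gap was higher in the probiotic mean but overlapped. Values from a fit that carries the Actb gap as a covariate are given for single genes. The labelled tissue matched its defining transcripts: the albumin gene Alb had deposited intensities of 55435 to 126788, with a log2 difference between groups of -0.0050, and 9 of 9 hepatocyte marker genes on the array passed the signal filter.

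The 2 genes of the first step had the widest group differences among the 9. Both had higher means in the probiotic group, Alas1 by 2.55-fold and Alas2 by 2.09-fold, while the 6 later enzymes of synthesis had differences from -0.020 to 0.55 on the log2 scale and Blvrb had -0.0015. None of the 9 genes passed the test over all probe sets at an adjusted p under 0.05 (limma), a threshold that 0.0215% of the 18625 probe sets tested passed. At an unadjusted p under 0.05, 2 of 9 genes were past, Alas1 and Alas2, beside 6.84% of all probe sets. The count was again 2 under 9 of 17 other settings, though not always by the same genes. Without high-fat sample 1 the 2 were Alas2 and Fech (unadjusted p = 0.0439 and 0.0166, limma), and Alas1 had 0.0810. The count was 0 in the fits without probiotic sample 2, without high-fat sample 2, without both, without the intensity trend and beside the Actb gap. Of the 9 genes, 7 had a difference above 0, as did 50.5% of all probe sets. That count was 9 with median centring or no normalization between arrays, and 3 in the fit that carries the Actb gap.

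**Figure D1:**
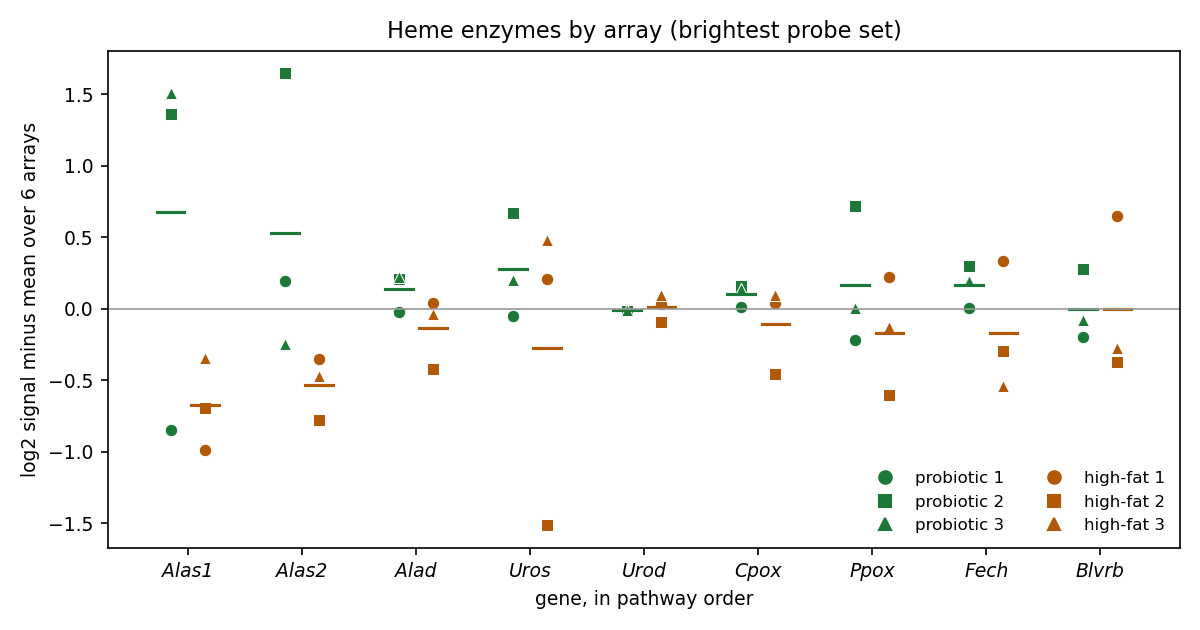
Log2 signal of the brightest probe set of each of the 9 genes, quantile normalized and centred on its mean over 6 arrays (y axis), for 3 probiotic (green) and 3 high-fat (orange) samples; circles, squares and triangles are samples 1, 2 and 3, and horizontal bars are group means. Alas1 is high in probiotic samples 2 and 3, Alas2 is highest in probiotic sample 2, and high-fat sample 2 is the lowest array for 7 of the 9 genes.

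Alas1, the synthase of the liver and all other cells, had deposited intensities of 1511, 7151 and 7955 in probiotic samples 1, 2 and 3. In high-fat samples 1, 2 and 3 they were 1370, 1652 and 2268. Probiotic samples 2 and 3 lay far above every high-fat sample, whereas probiotic sample 1 lay within the range of the high-fat group, so the groups overlapped. On the log2 scale the mean was 12.12 ± 1.32 for probiotic and 10.76 ± 0.32 for high-fat samples (SD, n = 3 in each group). The difference was 1.35 (SE 0.54, 95% interval 0.15 to 2.56, unadjusted p = 0.0315, adjusted p = 0.727, limma). The difference was 0.94 without probiotic sample 3, 1.01 without probiotic sample 2 and 1.00 without both samples numbered 2 (unadjusted p = 0.125, 0.114 and 0.184). Without probiotic sample 1, the array that lay in the high-fat range, it was 2.11 and passed the adjusted test (adjusted p = 0.0357). Over all 17 other settings the adjusted p ran from 0.0357 to 1.00. Fitted beside the Actb gap the difference was 0.25 (unadjusted p = 0.724).

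Alas2, the erythroid synthase, had intensities of 812.2, 2301 and 596.4 in probiotic samples 1, 2 and 3. They were 556.9, 413.6 and 509.5 in high-fat samples 1, 2 and 3. The groups did not overlap, but probiotic sample 3 lay close above high-fat sample 1, and probiotic sample 2 stood apart from the other 5 arrays. Among the 9 genes this was the only one without overlap between groups, beside 12.7% of all probe sets. The log2 means were 10.04 ± 0.99 and 8.97 ± 0.22 (SD, n = 3 each), a difference of 1.07 (SE 0.43, 95% interval 0.10 to 2.03, unadjusted p = 0.0334, adjusted p = 0.727, limma). It was 0.51 without probiotic sample 2, 0.39 without both samples numbered 2 and -0.070 beside the Actb gap.

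**Figure D2:**
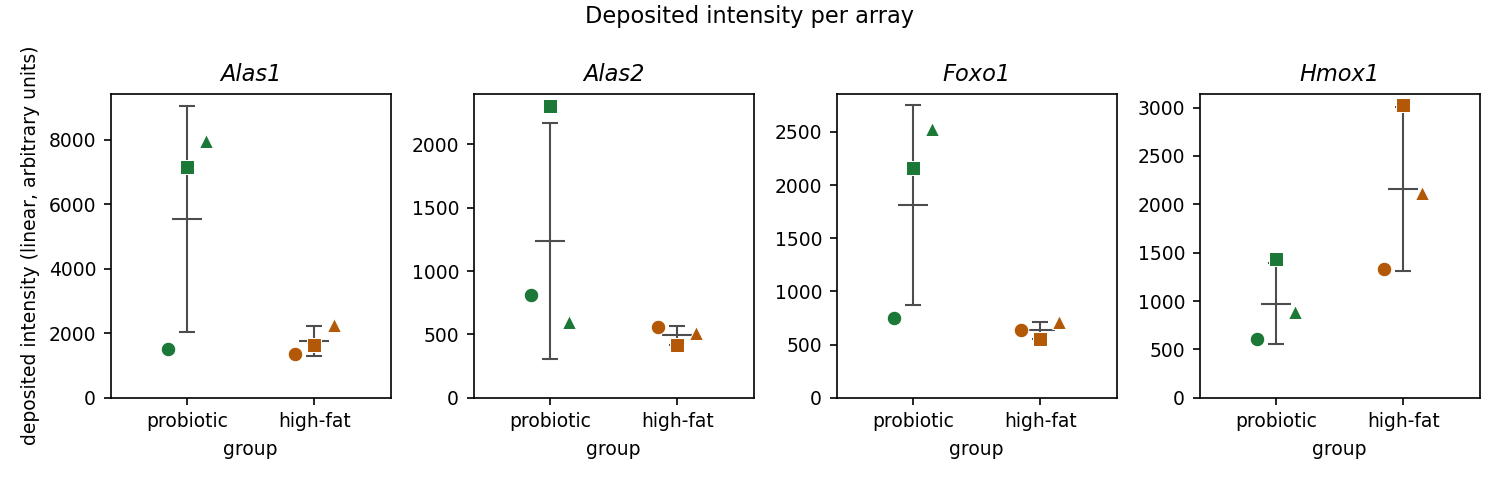
Deposited linear intensity (y axis, from 0, arbitrary units) of Alas1, Alas2, Foxo1 and Hmox1 in the 3 probiotic and 3 high-fat samples (circles, squares and triangles are samples 1, 2 and 3); the horizontal dash and bar are the group mean and SD. Alas1 and Foxo1 share their high values in probiotic samples 2 and 3, Alas2 has a single high value of 2301 in probiotic sample 2, and Hmox1 overlaps between groups with lower probiotic values.

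The profiles of the 2 synthases across arrays were not alike. Probiotic sample 3 held the highest Alas1 value, 1.51 above that gene's mean over the 6 arrays on the log2 scale, while its Alas2 value was 0.25 below the Alas2 mean. In probiotic sample 1 the order was turned, with Alas1 0.85 below and Alas2 0.20 above their means. Only in probiotic sample 2 were both clearly above, at 1.36 for Alas1 and 1.65 for Alas2.

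The 250 bases before the listed gene starts of this pair are shown because they are the isozymes whose values differ between arrays. Both are from RefSeq on build GRCr8, read 5′ to 3′ on the strand of the gene, and capitals mark matches to a motif searched on both strands: TGCGC, the half-site of the factor NRF1, in Alas1 (chr8:115768643-115768892, minus strand) and AGATAA of GATA factors in Alas2 (chrX:22895200-22895449, plus strand).
Alas1: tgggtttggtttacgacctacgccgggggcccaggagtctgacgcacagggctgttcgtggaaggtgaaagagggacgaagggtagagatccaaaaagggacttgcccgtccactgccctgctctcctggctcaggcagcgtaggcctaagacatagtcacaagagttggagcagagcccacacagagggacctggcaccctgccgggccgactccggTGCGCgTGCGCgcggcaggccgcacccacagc
Alas2: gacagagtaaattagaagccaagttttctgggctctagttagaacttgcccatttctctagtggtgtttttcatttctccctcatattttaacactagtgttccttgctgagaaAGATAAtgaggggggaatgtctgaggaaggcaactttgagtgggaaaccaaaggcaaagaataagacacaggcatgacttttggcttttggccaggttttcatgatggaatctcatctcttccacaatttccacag
Sequences matched 8 of the 9 genes. TGCGC was found in 1 of these 8 windows, that of Alas1, which held 2 matches, and in 25% of all 33465 windows of the same length, and AGATAA in 2 of 8 (Alas2 and Fech) and in 10.3% of all. CACCC was found in 3 of 8 (Alas1, Alad and Blvrb) and in 49.2% of all, and CCAAT in 2 of 8 (Alad and Ppox) and in 34% of all. TATAAA and the FOXO motif GTAAACA were found in 0 of 8, and in 12.9% and 3.22% of all. No match to 1 of these motifs overlapped a match to another in the printed pair. These are matches of letters before the starts that RefSeq lists. The Alas2 window ends in letters like those of a splice acceptor, and TATA-like letters follow rather than precede the Alas1 start, so the listed starts may not be the main ones and the windows may not be the promoters in use.

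Alad, the dehydratase that joins 2 molecules of aminolevulinate into porphobilinogen, had intensities of 5285, 6366 and 6306 in probiotic samples 1, 2 and 3 and 5560, 3870 and 5396 in high-fat samples 1, 2 and 3. Probiotic samples 2 and 3 were above all high-fat samples and probiotic sample 1 was not. Its log2 difference was 0.27 (SE 0.17, 95% interval -0.12 to 0.67, adjusted p = 0.749, limma). The difference stayed above 0 under all 17 other settings, some of which leave it unchanged by construction. It ran from 0.022 beside the Actb gap to 0.36 without high-fat sample 1.

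Uros encodes the synthase that closes the tetrapyrrole ring, and its 2 probe sets had opposite signs. The brighter, 1380137_at, read 149.6, 239.8 and 170.1 in probiotic samples 1, 2 and 3 and 185.5, 54.6 and 203.4 in high-fat samples 1, 2 and 3. Its log2 difference of 0.55 (SE 0.51, adjusted p = 0.808, limma) came with the low value of high-fat sample 2 and was -0.070 without it. The other, 1392695_a_at, read 175.4, 22.8 and 134.6 in probiotic and 128.4, 194.7 and 101.4 in high-fat samples 1, 2 and 3. Its difference of -0.53 (SE 0.57, adjusted p = 0.836) came with the low value of probiotic sample 2 and was 0.17 without it. Both probe sets were dim, with log2 means of 7.39 and 6.99 beside a filter limit of 6.30, and no direction can be given for Uros.

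Urod, the decarboxylase that turns uroporphyrinogen into coproporphyrinogen, had the smallest spread of the 9 genes. Its intensities were 2452, 2507 and 2503 in probiotic samples 1, 2 and 3 and 2484, 2233 and 2743 in high-fat samples 1, 2 and 3. The log2 difference was -0.020 (SE 0.16), with a 95% interval of -0.38 to 0.34. The interval of Alas1, 0.15 to 2.56, overlapped it, and the 2 genes were not tested against each other.

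Cpox and Ppox are the mitochondrial oxidases that follow. Cpox read 2733, 3157 and 3086 in probiotic samples 1, 2 and 3 and 2779, 1942 and 3026 in high-fat samples 1, 2 and 3, a log2 difference of 0.21 (SE 0.19, 95% interval -0.22 to 0.65). Only high-fat sample 2 stood away from the others, and without it the difference was 0.037. Ppox read 275.9, 526.6 and 312.8 in probiotic and 380.8, 228.9 and 280.5 in high-fat samples 1, 2 and 3. Its highest value was in probiotic sample 2 and its lowest in high-fat sample 2, so that the difference of 0.34 (SE 0.33, 95% interval -0.40 to 1.08) was -0.16 without both.

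Fech encodes ferrochelatase, which inserts iron into protoporphyrin. Its intensities were 3562, 4473 and 4104 in probiotic samples 1, 2 and 3 and 4484, 2777 and 2546 in high-fat samples 1, 2 and 3. High-fat sample 1 was as high as the highest probiotic sample, and high-fat samples 2 and 3 were below all probiotic samples. The log2 difference was 0.33 (SE 0.23, 95% interval -0.19 to 0.85, adjusted p = 0.761, limma). It was 0.58 without high-fat sample 1, 0.14 without high-fat sample 3, 0.20 without both samples numbered 2 and 0.10 beside the Actb gap.

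**Figure D3:**
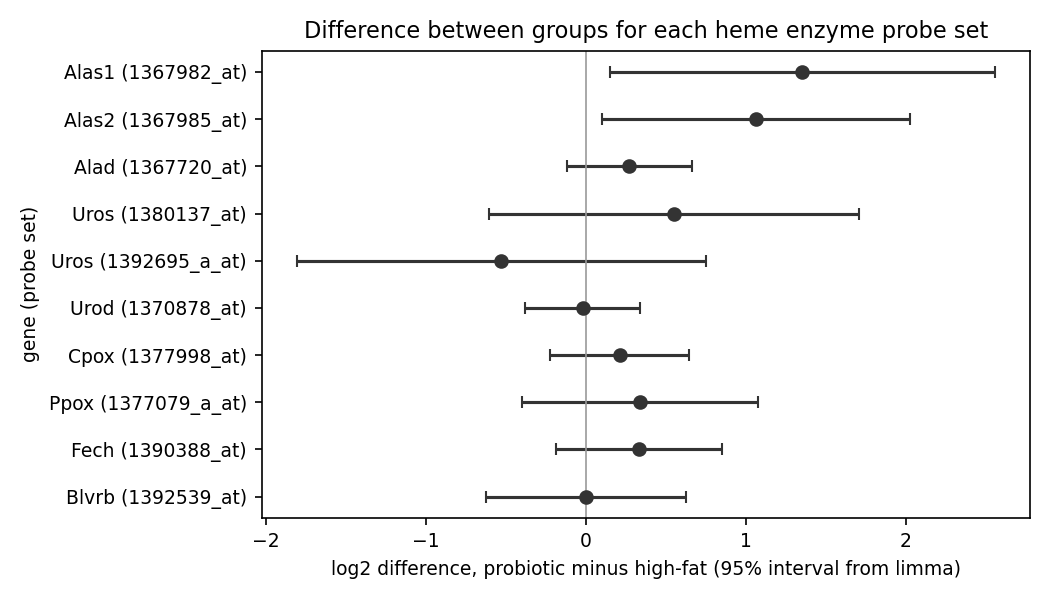
Log2 difference, probiotic minus high-fat (x axis, with 95% interval from limma), for each of the 10 probe sets of the 9 genes. The intervals of Alas1 and Alas2 lie above 0 before adjustment, those of the other 8 probe sets include 0, and the 2 Uros probe sets point opposite ways.

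Levels of different probe sets cannot be set against each other, so the first step was compared with the 6 later enzymes through each gene's deviation from its own mean over the 6 arrays. The mean deviation of the later enzymes was -0.047, 0.34 and 0.13 in probiotic samples 1, 2 and 3 and 0.15, -0.56 and -0.0048 in high-fat samples 1, 2 and 3. The deviation of Alas1 minus this mean was -0.80, 1.02 and 1.39 in probiotic samples 1, 2 and 3 and -1.13, -0.13 and -0.34 in high-fat samples 1, 2 and 3. Relative to the later enzymes, Alas1 was therefore high in probiotic samples 2 and 3 and low in sample 1 of each group, and the groups overlapped. The group difference of this quantity was 1.07 on the log2 scale, with means of 0.54 ± 1.17 and -0.54 ± 0.53 (SD, n = 3 each). With probiotic sample 3 left out it was 0.65, and with probiotic sample 1 left out 1.73.

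For Alas2 the same quantity was 0.24, 1.31 and -0.37 in probiotic samples 1, 2 and 3 and -0.50, -0.22 and -0.46 in high-fat samples 1, 2 and 3. Probiotic sample 3 lay inside the high-fat range, so that Alas2, whose groups did not overlap by itself, overlapped once set against the later enzymes. The difference was 0.78, with means of 0.39 ± 0.85 and -0.39 ± 0.15 (SD, n = 3 each). It was 0.32 without probiotic sample 2 and 0.080 in the fit with the Actb gap, where that of Alas1 was 0.40. These differences are descriptions, and no test was made of them. The median log2 difference was 0.30 over the 6 later enzymes and 0.33 over all 9 genes, beside 0.0045 over all probe sets tested. This median rests on the samples numbered 2. Without both of them the 6 were Alad 0.092, Uros -0.28, Urod -0.070, Cpox 0.0076, Ppox -0.16 and Fech 0.20. Beside the Actb gap they ran from -0.47 for Uros to 0.10 for Fech.

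**Figure D4:**
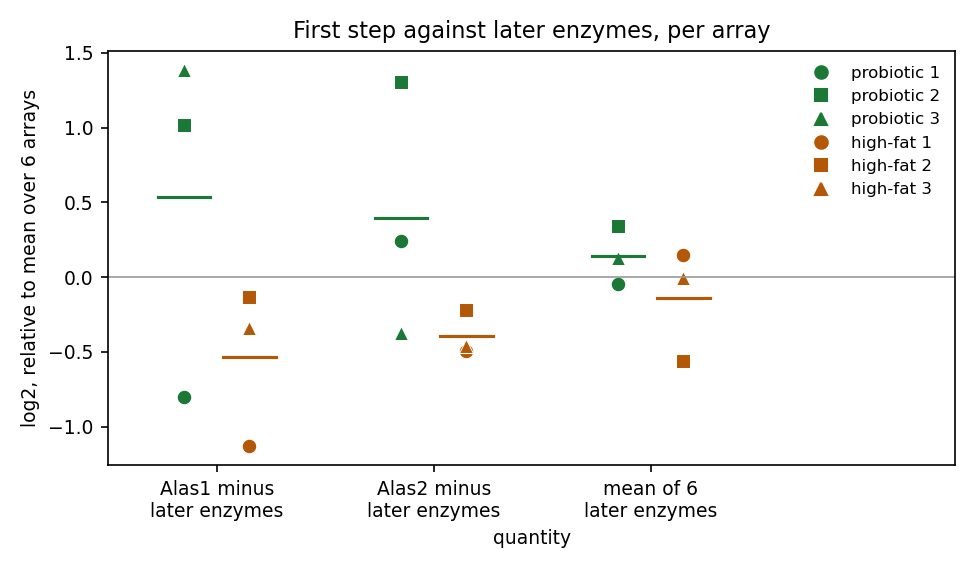
Per array, the deviation of Alas1 and of Alas2 from their own means minus the mean deviation of 6 later enzymes, and that mean deviation itself (y axis, log2), in 3 probiotic and 3 high-fat samples with group means as bars. Alas1 relative to the later enzymes is above 1 in probiotic samples 2 and 3 and -0.80 in probiotic sample 1, and Alas2 is above 1 in probiotic sample 2 alone.

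Blvrb encodes biliverdin reductase B, a flavin and biliverdin reductase abundant in red cells. It read 2334, 3384 and 2638 in probiotic samples 1, 2 and 3 and 4227, 2023 and 2337 in high-fat samples 1, 2 and 3. High-fat sample 1 was the highest array and the other high-fat samples were close to or below the lowest probiotic one. The log2 difference was -0.0015 (SE 0.28, 95% interval -0.63 to 0.62), and it was 0.32 without high-fat sample 1 and -0.47 beside the Actb gap.

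Other heme enzymes were read from a separate list of 7, of which 6 were on the array and tested. Of these, 2 had higher and 4 lower means in the probiotic group, and 0 passed the adjusted test. Beside 6.84% of all probe sets, 1 of the 6 had an unadjusted p under 0.05. That was Hmox1, the inducible heme oxygenase, which opens the heme ring and releases iron. Its intensities were 603.1, 1432 and 887.5 in probiotic samples 1, 2 and 3 and 1334, 3022 and 2114 in high-fat samples 1, 2 and 3. All but probiotic sample 2 lay below every high-fat sample, and the log2 difference was -1.17 (SE 0.37, unadjusted p = 0.0108, adjusted p = 0.727, limma). It was below 0 under all 17 other settings, some of which leave it unchanged by construction, and ran from -1.58 to -0.86. Blvra, the main biliverdin reductase, had a difference of 0.25, Hccs, which attaches heme to cytochrome c, -0.23, and Hmox2, the constitutive oxygenase, named here after its value was seen, -0.12. Heme oxygenase 1 is also made by Kupffer cells, the liver's macrophages, and 10 of 10 tested Kupffer cell markers had lower means in the probiotic group. Over all probe sets tested, 50.5% had a higher mean. The median log2 difference of the 10 markers was -0.40. Their mean deviation was -0.25, -0.35 and -0.0014 in probiotic samples 1, 2 and 3 and 0.091, 0.35 and 0.15 in high-fat samples 1, 2 and 3. The samples numbered 2 thus lay at the ends. Summed intensity of the markers was 13336 to 16639 over probiotic and 16340 to 21133 over high-fat samples, with none at 0. Of the 10, 1 had an unadjusted p under 0.05, C1qc, beside 6.84% of all probe sets. The part of Kupffer cells in the Hmox1 difference was not tested.

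Alas2 is a transcript of red cell precursors and young red cells, and other erythroid markers were read beside it. In whole tissue, fewer cells of a type and less RNA per cell cannot be told apart. Of 20 erythroid markers on the array, 13 passed the signal filter, and 11 of these had higher and 2 lower means in the probiotic group. Over all probe sets 50.5% had a higher mean. The median log2 difference of the 13 was 0.35, and 7 of them were highest in probiotic sample 2. Several were dim, with log2 means down to 6.38 beside a filter limit of 6.30. Ank1, Car1 and Nfe2, counted as higher, had high-fat means of 6.10, 6.17 and 6.20 and passed only through their probiotic means. The 2 lower markers, Epor and Ahsp, had probiotic means of 6.06 and 6.17 and passed only through their high-fat means. The counts of higher and lower markers thus depend on the filter. The Ahsp difference was -0.47. None passed the adjusted test (limma), and 2 of 13 had an unadjusted p under 0.05, beside 6.84% of all probe sets. Beta-globin, Hbb, read 32285, 49053 and 28962 in probiotic samples 1, 2 and 3 and 25009, 18861 and 24325 in high-fat samples 1, 2 and 3. As for Alas2, the groups did not overlap, probiotic sample 2 was the highest array and high-fat sample 2 the lowest, with a log2 difference of 0.72 (SE 0.24, unadjusted p = 0.0154, adjusted p = 0.727, limma). It was 0.45 without probiotic sample 2, 0.24 without both samples numbered 2 and 0.022 beside the Actb gap. The other was Tent5c, a poly(A) polymerase, with a difference of 1.49, which was 0.55 beside the Actb gap, and the next by p was the erythropoietin receptor Epor, with -1.17. The summed intensity of the 20 markers was 33576 to 57512 over probiotic and 23246 to 29283 over high-fat samples, with none at 0. Most of this sum was Hbb. The other 19 markers summed to 4033, 8459 and 4614 in probiotic samples 1, 2 and 3 and 4274, 4385 and 3508 in high-fat samples 1, 2 and 3, so that without Hbb the groups overlapped and probiotic sample 2 alone stood out. The markers below the filter, with their log2 differences, were Epb42 (-0.059), Klf1 (-0.072), Gata1 (-0.42), Sptb (-0.056), Hemgn (1.35), Rhag (-0.61) and Kel (0.072). The part of red cells in the Alas2 difference was not tested.

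Of 14 listed regulators of Alas1 on the array, 13 were tested, with 6 higher and 7 lower means in the probiotic group. None passed the adjusted test (limma), and 2 higher and 1 lower had an unadjusted p under 0.05, beside 6.84% of all probe sets. The groups did not overlap for 3 higher and 1 lower of the 13, beside 12.7% of all probe sets. Foxo1, a transcription factor held in check by insulin, read 749, 2164 and 2524 in probiotic samples 1, 2 and 3 and 641.8, 549.6 and 713.8 in high-fat samples 1, 2 and 3. As for Alas1, probiotic samples 2 and 3 were high and probiotic sample 1 was close to the high-fat group. The log2 difference was 1.32 (SE 0.40, unadjusted p = 0.00857, adjusted p = 0.727, limma). It was 1.85 without probiotic sample 1 (adjusted p = 0.0483), 1.00 without probiotic sample 3, 1.01 without both samples numbered 2 and 0.52 beside the Actb gap (unadjusted p = 0.345). The immediate early factor Egr1 had a difference of 2.31 with intensities of 969.2, 20227 and 1015 in probiotic samples 1, 2 and 3 and 423.3, 682.3 and 574.7 in high-fat samples 1, 2 and 3. Its groups did not overlap, and probiotic sample 2 stood far above the other 5 arrays. Rxra, the partner of several nuclear receptors, had -0.93 and did not overlap between groups. The median over the 13 was -0.030.

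Genes that carry or bind heme and its precursors numbered 18, all tested, with 11 higher and 7 lower means and a median of 0.083. None passed the adjusted test (limma). The groups did not overlap for 1 higher and 2 lower of the 18, beside 12.7% of all probe sets. Beside 6.84% of all probe sets, 1 of the 18 had an unadjusted p under 0.05. This was Pgrmc2, a heme-binding membrane protein, at 4942, 7505 and 5943 in probiotic samples 1, 2 and 3 and 4474, 3010 and 4019 in high-fat samples 1, 2 and 3. Its groups did not overlap and the log2 difference was 0.66 (SE 0.21, unadjusted p = 0.0103, adjusted p = 0.727, limma). It was 0.37 without both samples numbered 2 and 0.17 beside the Actb gap. Clpx, a mitochondrial unfoldase that acts on the synthase, had 0.56, and the heme transporter Slc48a1 had -0.32.

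Among 11 heme-containing or heme-linked proteins of liver, 4 had higher and 7 lower means, with a median of -0.015. None passed the adjusted test (limma). Beside 6.84% of all probe sets, 1 of the 11 had an unadjusted p under 0.05, the bile acid hydroxylase Cyp8b1, at 0.40. Catalase, Cat, had 0.23 and cytochrome c1, Cyc1, had -0.31, both without overlap between groups on the normalized scale. The groups did not overlap for 1 higher and 2 lower of the 11, beside 12.7% of all probe sets.

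Patterns over the 6 arrays closest to those of the 2 synthases were sought among all tested probe sets with 1 symbol, by the root mean square distance between centred log2 values. Closest to Alas1 were Foxo1 (distance 0.289), Klf13 (0.296) and Baiap2l1 (0.334). Closest to Alas2 were Pvr (0.117), Fam177a1 (0.201) and Ppp1r15a (0.218). With 6 arrays and 18625 probe sets, such closeness is a description of these samples.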

How the data were processed

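Per the labels' protocols, liver RNA was extracted with Trizol and biotin-labelled cRNA from 8 ug was hybridised to 1-colour Affymetrix arrays. The authors deposited 1 linear intensity per probe set and array, and the sources used here do not name the software. The mean after removing 2% of probe sets at each end was 500.3 on each array, as linear scaling gives. The number of arrays limits the precision.

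Intensities were turned into log2(intensity + 16) and quantile normalized over the probe sets other than the 57 controls. A fold on this scale understates changes of dim probe sets. Probe sets with a mean at or above the 40th percentile were tested, 18625 in all, with limma 3.58.1 in R 4.3.3 (lmFit, eBayes with trend, two-sided, Benjamini-Hochberg adjustment over all of them, threshold 0.05). Differences are probiotic minus high-fat. Symbols came from the platform annotation, updated by gene ID to RefSeq GRCr8. Of 20826 probe sets with 1 symbol, 20758 matched and 0 changed, 436 had several symbols and 9780 are unnamed here. Genes are represented by the brightest probe set.

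The members and lists were chosen with earlier results of these data known. All member probe sets are named, then at most the 3 genes of smallest p in each list, Hbb, Alb and the 3 nearest patterns for Alas1 and Alas2. Hmox2, Ahsp, Ank1, Car1, Nfe2, Tat, Cyp7a1, Por and Nr1d1, and the erythroid markers below the filter, fall outside this rule and were named after their values were seen. The fit was tested on simulated data: of probe sets changed 2-fold it recovered 12.2%, and of those changed 4-fold 57.6%. It made 2.5 false calls per run. The simulated noise was independent between probe sets, so shifts shared by many probe sets of an array were not covered. Alternatives covered normalization, filter, pseudocount (1 and 64), variance model, array weights, replicate block, Actb gap and samples left out. Those for Hmox1, Foxo1, Pgrmc2, Hbb, Tent5c, the other Uros probe set and counts of members were chosen after seeing the data. Figures were drawn with matplotlib 3.10.9.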

Additional observations from a re-analysis of the deposited data

How the results depend on the processing

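Alas1, Alad, Fech, Hmox1, Foxo1, Pgrmc2, Hbb and Tent5c kept their direction under all 17 alternatives run. The filter settings, the fit without the intensity trend and the replicate block leave a difference unchanged by construction. Those settings therefore could not turn a direction. No member passed the adjusted test except Alas1 without probiotic sample 1, so the count of members past it was 0 to 1 with single samples left out, and the count over all probe sets was 3 to 12 (main 4). Fitted beside the Actb gap, the Alas2 difference against the later enzymes was 0.080, and the differences of Alas2 (-0.070), Uros (-0.47), Cpox (-0.035), Ppox (-0.45) and the other Uros probe set (1.01) turned sign; the cause was not tested. Urod and Blvrb, near 0, turned to 0.054 and 0.068 with median centring and to 0.0055 and 0.020 without normalization, which shifted the median of all probe sets to 0.029 and -0.020. With single samples left out, Blvrb ran from -0.18 to 0.32, Urod from -0.072 to 0.022, Uros from -0.070 to 0.91 and its other probe set from -0.95 to 0.17. Without both samples numbered 2, Uros had -0.28, its other probe set 0.31 and Ppox -0.16. Correlations of same-numbered deviations were 0.144, 0.0270 and 0.0774, and 2 of 3 numbers correlated best with their own. With 3 numbers this cannot settle whether the replicate numbers pair the samples, and the main fit carries no block. A replicate block changed the SE of Alas1 from 0.54 to 0.35, that of Hmox1 from 0.37 to 0.17 and that of Ppox from 0.33 to 0.36. With the replicate block the adjusted p was 0.578 for Alas1 and 0.592 for Alas2, and 0 members were past the threshold. At the 60th percentile Uros was not tested.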

Other observations

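Several liver genes outside the heme pathway shared the low values of Alas1 in sample 1 of one or both groups. They are given as values, chosen after these were seen. Tat, the tyrosine aminotransferase induced by glucocorticoids, had deposited intensities of 1971, 10993 and 7706 in probiotic samples 1, 2 and 3 and 2062, 6736 and 4261 in high-fat samples 1, 2 and 3. Cyp7a1, the bile acid synthesis hydroxylase and itself a heme protein, had 960.2, 11728 and 9884 in the probiotic and 4710, 8913 and 5779 in the high-fat samples. Por, the reductase that passes electrons to cytochromes P450 and heme oxygenases, had 4644, 7457 and 6806 in the probiotic and 1558, 13265 and 12145 in the high-fat samples. Nr1d1, a heme-binding clock repressor, had 403.8, 617.4 and 1437 in the probiotic and 496.7, 1293 and 1776 in the high-fat samples. None of these 4 differed between groups at an unadjusted p under 0.05, with log2 differences of 0.50, -0.35, -0.015 and -0.56.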
